A study of Arabidopsis thaliana with 17 samples.

Results

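The comparison described here sets the Arabidopsis thaliana double mutant psae1-3 stn7-1 against the single mutant psae1-3. By their labels both groups carry the psae1-3 allele and differ by stn7-1, and other differences between them are not excluded. It rests on 4 of the 17 ATH1 arrays of the series, 2 of psae1-3 stn7-1 (A and B) and 2 of psae1-3 (A and B). Each array held RNA from a separate pool of 10 plants, taken as rosette leaves at an age of 4 weeks, and no treatment is given in the labels. The genes looked at most closely came from a set limited by the wild types. Those named as highest and lowest within it were then picked by their change on these 4 arrays. For the limit, the mean log2 signals of the wild types Wassilewskija (2 arrays) and Col-0 (3 arrays) had to lie less than 0.5 apart. This held for 7823 of the 13648 probe sets tested, called alike below, and 4209 of them could be named by 1 gene. The other 5825 probe sets are called apart. Another pair of STN7 comparisons served for contrast, stn7-1 against Col-0 (3 arrays each) and psad1-1 stn7-1 (3 arrays) against psad1-1 (2 arrays). The labels name the alleles of each mutant but not the accession in which each allele was made.

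STN7 is the thylakoid protein kinase that phosphorylates light-harvesting complex II when the plastoquinone pool is reduced, which moves part of this antenna to photosystem I in state transitions. The same kinase is needed for the long-term response, in which leaves adjust photosystem amounts to light quality, partly through gene expression in nucleus and plastid. PSAE is a small stromal subunit of photosystem I at the site where ferredoxin docks, and loss of its major isoform slows electron flow through photosystem I. A psae1 mutant would therefore have a plastoquinone pool that is more reduced than in the wild type. In a double mutant that lacks STN7 this signal would meet a thylakoid without the kinase. Neither the redox state of the pool nor the kinase was measured here.

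The mutated gene PSAE-1 (AT4G28750, chromosome 4, 14202758 to 14204061 in TAIR10.1) checked the psae1-3 label. Its signal was 5.25 and 10.4 in psae1-3 stn7-1 and 23.7 and 63.2 in psae1-3, against 5105 and 4913 in Wassilewskija, so both mutants were far below the wild type. No probe set named here belongs to STN7, so the stn7-1 allele was not checked by its own transcript, and what its transcript does in these plants is not analysed here. The log2 signals of the 2 arrays of psae1-3 stn7-1 correlated at 0.979 and those of psae1-3 at 0.978, while pairs across the 2 genotypes correlated at 0.926 to 0.946. The psae1-3 arrays correlated at 0.954 to 0.962 with Wassilewskija and at 0.796 to 0.855 with Col-0. The psae1-3 stn7-1 arrays correlated at 0.923 to 0.936 with Wassilewskija and at 0.843 to 0.888 with Col-0. RCA, the Rubisco activase that marks mesophyll, read 6319 to 6493 in psae1-3 stn7-1 and 5882 to 6704 in psae1-3. FMA (FAMA), a guard cell factor, read 47.4 to 64.5 in psae1-3 stn7-1 and 34.0 to 49.5 in psae1-3, and the root gene PYK10 stayed below the background signal of 8.15 on all 4 arrays. These were the only annotated members of the mesophyll (1 of 5), guard cell and epidermis (1 of 7) and root (1 of 3) marker lists, and the phloem (4 genes) and meristem and inflorescence (7 genes) lists had 0 annotated members. In leaf samples of this kind fewer cells of a type and less RNA per cell cannot be told apart.

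Across all 13648 tested probe sets 1677 were called (12.3%), which means an adjusted p under 0.05 in the limma fit over all 17 arrays. Of these, 1021 were higher and 656 lower in psae1-3 stn7-1 than in psae1-3. Among the 7823 alike probe sets 727 were called (9.29%), 391 of them higher (5%) and 336 lower (4.3%), and the median log2 change of the alike set was -0.003. Among the 5825 apart probe sets 950 were called (16.3%), 630 higher and 320 lower. When each array was scaled to its median instead of its trimmed mean, the median change over all tested probe sets was -0.10 on the log2 scale, and the share of alike calls that were higher was 36.9%, against 53.8% with the trimmed mean. Without psae1-3 stn7-1 replicate A the alike count was 251, and without psae1-3 replicate A it was 332.

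The calls leaned toward the Col-0 level where the wild types differed. The share of probe sets called was 9.31% where the wild types lay less than 0.25 apart, 9.27% from 0.25 to 0.5, 12.1% from 0.5 to 1, 20.5% from 1 to 2 and 35.5% above 2. The share of calls in which psae1-3 stn7-1 moved toward the Col-0 side was 53.8%, 65.1%, 77.7%, 90.6% and 98.8% in the same 5 classes. The second of these classes lies inside the alike set, so the rule of 0.5 did not bring the calls to an even split there. The share called also differed along the genome. On chromosome 1, 127 of 1051 named alike probe sets were called (12.1%), while the shares on chromosomes 2, 3, 4 and 5 were 7.39%, 5.91%, 6.94% and 8.47%. In the apart set the share was 23.2% on chromosome 1 and 18.8% on chromosome 5, against 7.41% to 9.60% on the other 3 nuclear chromosomes. Of the 8 plastid-encoded alike and 59 plastid-encoded apart probe sets, 0 were called. The part that DNA segments of another accession play in any of these shares was not tested.

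**Figure D1:**
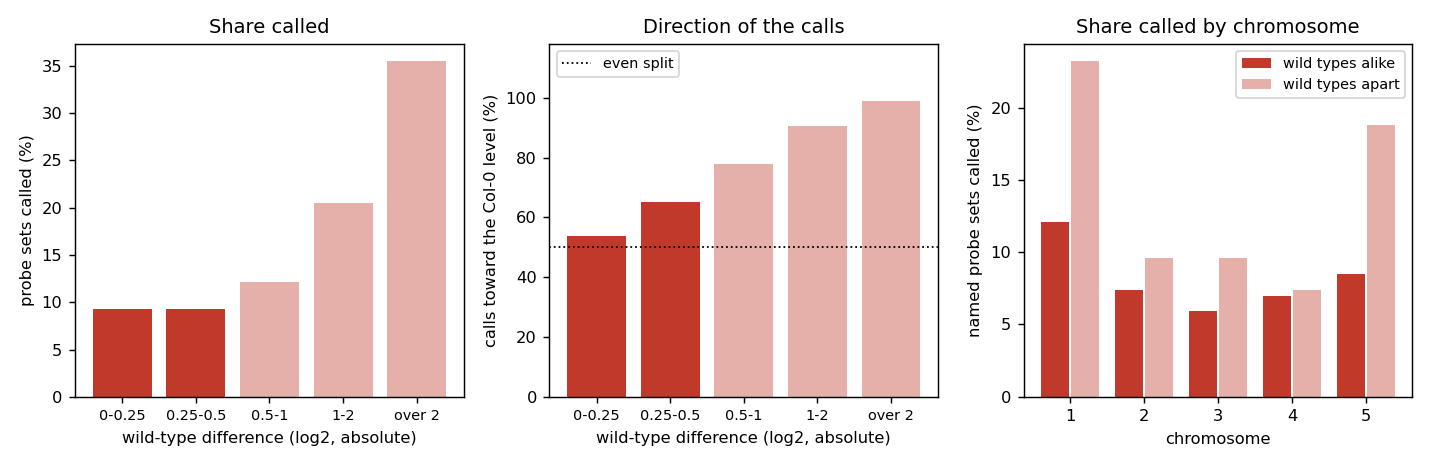
Percent of tested probe sets called between psae1-3 stn7-1 and psae1-3 (left) and percent of those calls directed toward the Col-0 level (middle), by the absolute log2 difference between Wassilewskija and Col-0, and percent of named probe sets called by chromosome (right). Dark bars are alike and light bars apart probe sets; the share of calls toward Col-0 runs between 53.8% and 98.8% along the classes, and the share called in the alike set is 12.1% on chromosome 1.

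Among named alike genes the highest in psae1-3 stn7-1 was AT5G55450 (chromosome 5, 22467337 to 22468306 in TAIR10.1). Its signal was 1480.1 and 1598 in psae1-3 stn7-1, against 81.2 and 96.1 in psae1-3, while Wassilewskija read 650.3 and 222. The double mutant was above, and the single mutant below, every wild-type array, with a log2 change of 4.12 ± 0.35 (SE, 2 arrays against 2, adjusted p = 7.57e-07). The next named gene with a known product was cwINV6 (AT5G11920, chromosome 5, 3839316 to 3842409), of the cell wall invertase family that cleaves sucrose or related sugars outside the cell. It read 85.2 and 91.2 in psae1-3 stn7-1, against 17.6 and 16.1 in psae1-3 and 23.3 and 23.7 in Wassilewskija, a log2 change of 2.39 ± 0.30 (adjusted p = 5.29e-05). AMY1, a secreted alpha-amylase that breaks down starch, read 43.6 and 36.5 in psae1-3 stn7-1, against 12.6 and 9.11 in psae1-3 (log2 change 1.90). SCPL45, a serine carboxypeptidase-like protein, read 93.7 and 89.9 in psae1-3 stn7-1, against 17.6 and 31.6 in psae1-3 (log2 change 1.96). For cwINV6 and AMY1 both psae1-3 stn7-1 arrays stood above both wild types' levels, the Col-0 means being 22.3 ± 5.47 and 20.5 ± 1.03 (SD, n = 3), and both psae1-3 arrays stood below those of Wassilewskija.

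Of the other 8 genes among the 12 highest, none carries a symbol in the annotation used. AT1G13750 read 224 and 178 in psae1-3 stn7-1, against 42.9 and 64.4 in psae1-3 (log2 change 1.92). AT1G49650 read 73.8 and 76.3 in psae1-3 stn7-1, against 20.2 and 20.6 in psae1-3 (log2 change 1.88). AT4G29520 read 137 and 85.4 in psae1-3 stn7-1, against 30.9 and 29.3 in psae1-3 (log2 change 1.85). In all 3 the genotypes did not overlap, as the rule for naming required, and the Wassilewskija mean lay nearer to psae1-3. AT5G17760, AT5G09290, AT4G23610 and AT5G43910 changed by 2.27, 2.01, 1.98 and 1.94 on the log2 scale, at signals between 33.9 and 109 in psae1-3 stn7-1 and between 6.07 and 22.6 in psae1-3. AT5G42830 read 50.8 and 53.8 in psae1-3 stn7-1, against 3.22 and 24.4 in psae1-3, with a log2 change of 2.56 (adjusted p = 0.0127). Without psae1-3 replicate A, the array below background, its change was 1.097 and missed the threshold (adjusted p = 0.172), and without either psae1-3 stn7-1 array the adjusted p was 0.0747 and 0.0601. For AT5G09290, too, 1 of the psae1-3 arrays was below background, at 6.07. Without psae1-3 stn7-1 replicate A the log2 change of AT4G23610 was 1.26 (adjusted p = 0.137).

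The lowest named alike gene was PSAE-1 itself, given above, with a log2 change of -2.39 ± 0.34 (adjusted p = 0.00014). Both genotypes lay far below Wassilewskija. In psae1-3 stn7-1, at 5.25 and 10.4, it was near the background of 8.15, while psae1-3, at 23.7 and 63.2, was above it. Next came JMT (AT1G19640, chromosome 1, 6788885 to 6791919), which encodes the methyltransferase that makes methyl jasmonate from jasmonic acid. It read 23.1 and 17.4 in psae1-3 stn7-1, against 103 and 90.5 in psae1-3 and a mean of 48.5 ± 2.13 in Wassilewskija (SD, n = 2). The log2 change was -2.27 ± 0.21 (adjusted p = 1.68e-06), and the wild type lay between the double and the single mutant. COR15B, a cold-regulated protein of the chloroplast stroma that protects membranes, read 109 and 120.4 in psae1-3 stn7-1, against 403 and 238 in psae1-3, a log2 change of -1.44 (adjusted p = 0.04). TBL36, of the trichome birefringence-like family of cell wall acetyltransferases, read 10.2 and 10.7 in psae1-3 stn7-1, against 27.8 and 22.9 in psae1-3 (log2 change -1.27). ATIM, the plant relative of the replication factor TIMELESS, read 3.66 and 14.2 in psae1-3 stn7-1, against 22.8 and 26.3 in psae1-3, so that 1 array of the double mutant was under background (log2 change -1.76, adjusted p = 0.0492). The calls of COR15B, TBL36 and ATIM were lost without psae1-3 stn7-1 replicate A, with adjusted p of 0.194, 0.0838 and 0.512, and also without psae1-3 replicate A, with 0.276, 0.1 and 0.138. The ATIM change was -0.78 without psae1-3 stn7-1 replicate A.

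The other 7 genes among the 12 lowest have no symbol in the annotation. AT1G66430 read 45.2 and 55.1 in psae1-3 stn7-1, against 179.8 and 169 in psae1-3 and 215 and 150.2 in Wassilewskija (log2 change -1.80 ± 0.19, adjusted p = 6.85e-06). AT3G17350 and AT5G19090 both changed by -1.54, AT3G57320 and AT5G13140 by -1.35, AT1G20870 by -1.31 and AT1G49980 by -1.27. The signals of these 6 lay between 6.96 and 78.8 in psae1-3 stn7-1 and between 24.4 and 219 in psae1-3. None of them overlapped between the genotypes, as the rule for naming required. For AT1G20870 psae1-3 stn7-1 replicate A was below background, at 6.96, and without it the change was -0.78 (adjusted p = 0.164).

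**Figure D2:**
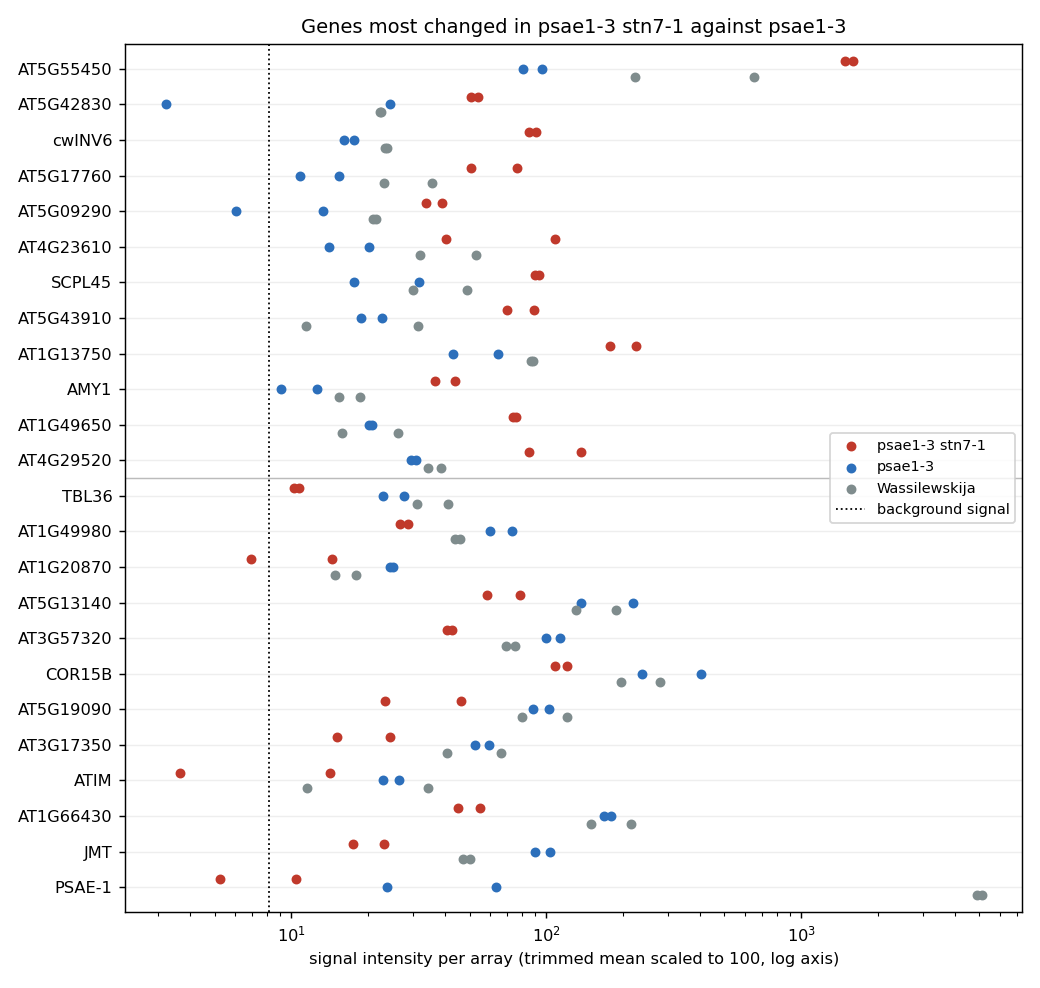
Signal per array (log axis) of the 12 highest and 12 lowest named alike genes in psae1-3 stn7-1, psae1-3 and Wassilewskija, 2 points per genotype. The dotted line is the background signal of 8.15; the psae1-3 stn7-1 points of AT5G55450 are the highest of the upper block, at 1480.1 and 1598, and those of PSAE-1 lie at 5.25 and 10.4.

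Of the 10 alike members of 5 lists for the photosynthetic apparatus 2 were called, beside 9.29% of the whole alike set, and 1 of the 2 is the mutated gene PSAE-1. Of the alike members of the photosystem I list, PSAE-1 was lower and PSAN, the lumenal subunit that helps plastocyanin dock, was not called. PSAN read 4097 and 4314 in psae1-3 stn7-1, against 4583 and 4909 in psae1-3 (log2 change -0.17, adjusted p = 0.274). On the photosystem II list 0 of 2 passed (PSBW and PSBY, log2 changes -0.21 and -0.10). On the light-harvesting complex II list 1 of 3 was lower: LHCB4.2, an isoform of the minor antenna protein CP29. It read 3223 and 3121 in psae1-3 stn7-1, against 3973 and 4200.2 in psae1-3, a log2 change of -0.37 ± 0.10 (adjusted p = 0.0181). Its isoform gene LHCB4.1 changed by -0.06 and LHCB4.3 by 0.34, neither past the threshold. The LHCB4.2 call was lost under 9 alternatives. They include leaving out psae1-3 stn7-1 replicate A or B or psae1-3 replicate B, with log2 changes of -0.39, -0.34 and -0.33. The limma adjusted p was 0.0733 and 0.0535 after the 2 quantile normalizations and 0.0618 with no variance trend. It was 0.0572 with no filter on dim probe sets, and 0.0645 and 0.0832 with only 6 or 4 arrays in the fit. PGRL1B of cyclic electron flow (log2 change 0.36, alike) and the ATP synthase subunit ATPC1 (0.04, apart) did not pass. SBPASE, PRK and RCA of the Calvin cycle, the first and second of them alike, changed by -0.15, -0.12 and 0.03 and did not pass. The lists for state transition kinases (5 genes), light-harvesting complex I (6) and flowering (9) had 0 annotated members and give no result.

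Of 8 alike members of a list of nuclear genes for plastid ribosomal proteins 5 were lower and 3 did not pass, beside 4.3% lower calls in the alike set. The log2 changes of the 8 ran from -0.94 to -0.26 with a median of -0.49, beside a median of -0.003 in the alike set. The largest change was that of AT4G17560, which read 294 and 441 in psae1-3 stn7-1, against 753 and 631 in psae1-3 and 376 and 330.1 in Wassilewskija (log2 change -0.94 ± 0.20, adjusted p = 0.00538). AT5G47190 read 559 and 760.4 in psae1-3 stn7-1, against 1037 and 1083 in psae1-3 (log2 change -0.70). AT4G01310 read 1139 and 1379 in psae1-3 stn7-1, against 2055 and 1910.3 in psae1-3 (log2 change -0.66). In these 3 genes the double mutant lay nearer to Wassilewskija than the single mutant did. AT5G65220 (-0.51) and AT3G13120 (-0.45) passed as well, and AT1G29070, AT3G54210 and AT1G64510 (-0.46, -0.39 and -0.26) did not. The number of calls was 0 of 8 without psae1-3 stn7-1 replicate A, 0 of 8 without psae1-3 replicate A, 2 without psae1-3 replicate B and 3 after quantile normalization over all arrays. The list was written with earlier results of these data known.

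Of 4 alike members of a list of enzymes of tetrapyrrole synthesis, the pathway to chlorophyll and haem, 0 were called, beside 9.29% of the alike set. HEME2, an enzyme of the same pathway that is not on the list, is alike and was lower (log2 change -0.77, adjusted p = 0.0168, and 0.254 without psae1-3 stn7-1 replicate A); it was picked after its values were seen. CHLI2, a subunit of magnesium chelatase, read 199.8 and 222 in psae1-3 stn7-1, against 305 and 237 in psae1-3 (log2 change -0.35, adjusted p = 0.222). CHLM, HEMB1 and GSA1 changed by -0.24, -0.20 and 0.17. PORB, the light-dependent protochlorophyllide oxidoreductase, is in the apart set with Wassilewskija 1.27 above Col-0, and it was lower: 1031 and 1289.5 in psae1-3 stn7-1, against 2288 and 1951 in psae1-3 (log2 change -0.87, adjusted p = 0.0063). Without psae1-3 stn7-1 replicate A its adjusted p was 0.0956, and without psae1-3 replicate A it was 0.0706. On the antioxidant list the 1 alike member, TAPX, the thylakoid ascorbate peroxidase that removes hydrogen peroxide made at photosystem I, was lower. It read 665 and 653 in psae1-3 stn7-1, against 904 and 997 in psae1-3 (log2 change -0.53 ± 0.12, adjusted p = 0.00918), with 0.0562 without psae1-3 stn7-1 replicate A and 0.0769 without psae1-3 replicate B. The apart members SAPX, NTRC and AT3G11630 did not pass (0.22, -0.08 and -0.24).

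Of 3 tested members of a list for protein folding in the endoplasmic reticulum 2 were higher, both of them alike, beside 5% higher calls in the alike set. ATERDJ3B, a J-domain partner of the chaperone BiP, read 547 and 455 in psae1-3 stn7-1, against 161 and 176 in psae1-3 and 263 and 187 in Wassilewskija (log2 change 1.57 ± 0.16, adjusted p = 6.60e-06). CRT1b, the calcium-binding lectin chaperone calreticulin, read 757 and 729 in psae1-3 stn7-1, against 371 and 376 in psae1-3 (log2 change 0.99 ± 0.13, adjusted p = 9.88e-05). Both psae1-3 stn7-1 arrays were above every psae1-3 and Wassilewskija array for the 2 genes. BZIP60, the transcription factor of the unfolded protein response, is in the apart set and did not pass (log2 change 0.62). With scaling to the array median the count of alike members called higher was 1. This list, too, was chosen after the data had been seen.

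On the 5 remaining lists with alike members 2 of 11 such members were called, beside 9.29% of the alike set. Of 4 alike sugar genes 1 was higher, SWEET11, which exports sucrose toward the phloem, at 1214 and 1167 in psae1-3 stn7-1, against 844 and 600.0 in psae1-3 (log2 change 0.74, adjusted p = 0.0114, and 0.142 without psae1-3 replicate B). SWEET2, SWEET4 and SWEET16 did not pass. The vacuolar fructose transporter SWEET17, an apart gene, was lower, with a log2 change of -1.28 (adjusted p = 0.00281, and 0.0667 without psae1-3 stn7-1 replicate A). Anthocyanin synthesis gave 0 calls of 3 alike members. DFR, dihydroflavonol reductase, read 18.2 and 8.39 in psae1-3 stn7-1 and 25.8 and 2.56 in psae1-3, against 87.4 and 417 in Wassilewskija, so both mutants were below the wild type and overlapped each other. UGT78D2, a flavonoid glucosyltransferase, changed by 0.56 (adjusted p = 0.0544). On the cold and abscisic acid list COR15B passed and COR47 (-0.54) did not, and on the salicylic acid list SAG101 (0.27) did not, nor did UGT74B1 on the glucosinolate list (-0.10). Apart members that passed were THI2.2, a thionin on the jasmonate list (log2 change 2.42), and BCAT4 of aliphatic glucosinolate synthesis (-1.04). So did all 3 tested members of the list for reactive oxygen and wounding, all apart, beside 16.3% called in the apart set. These were the zinc finger gene STZ, with a log2 change of 2.73, and the calmodulin-like genes CML41 and CML38. CML41 read 70.9 and 58.2 in psae1-3 stn7-1, against 9.45 and 3.31 in psae1-3, of which 1 was below background, and was at least 7.32-fold higher. CML38 read 47.6 and 20.7 in psae1-3 stn7-1, against 9.57 and 7.37 in psae1-3, of which 1 was below background, and was at least 3.55-fold higher (adjusted p = 0.0308). The CML38 call was lost under 7 alternatives, with adjusted p of 0.0915 and 0.0532 after the 2 quantile normalizations, 0.078 with robust variances, 0.095 with no filter on dim probe sets, 0.307 without psae1-3 stn7-1 replicate A, and 0.0826 and 0.143 without psae1-3 replicates A and B. Wassilewskija lay below Col-0 in all 3, with log2 differences of -5.20 for STZ, -3.05 for CML41 and -5.91 for CML38. GI of the circadian clock (-0.22) did not pass.

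The change that goes with stn7-1, called the STN7 effect, was not the same in the other backgrounds. Any other difference between the 2 genotypes of a comparison, such as segments of another accession, is part of it and was not tested separately. In stn7-1 against Col-0, 1482 of the alike probe sets were called (18.9%), 837 higher (10.7%) and 645 lower (8.24%). In all, 232 probe sets were called in both STN7 comparisons, which is 31.9% of the calls against psae1-3 and 15.7% of those against Col-0. Of these 39 had the same sign and 193 the opposite one, 81 of them higher in psae1-3 stn7-1 and lower in stn7-1, and 112 the reverse. Across the 7823 alike probe sets the 2 changes correlated at -0.26, a description over genes of 2 comparisons that share no array, though Col-0 also entered the rule for alike genes. The count of opposite calls was 43 without psae1-3 stn7-1 replicate A, 92 without psae1-3 replicate A and 122 without stn7-1 replicate A, and the share with opposite signs was 65.2%, 80% and 83.0% of the shared calls. In psad1-1 stn7-1 against psad1-1, 157 alike probe sets were called (2.01%), of which 22 were shared with the psae1-3 background, 14 with the same and 8 with the opposite sign.

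**Figure D3:**
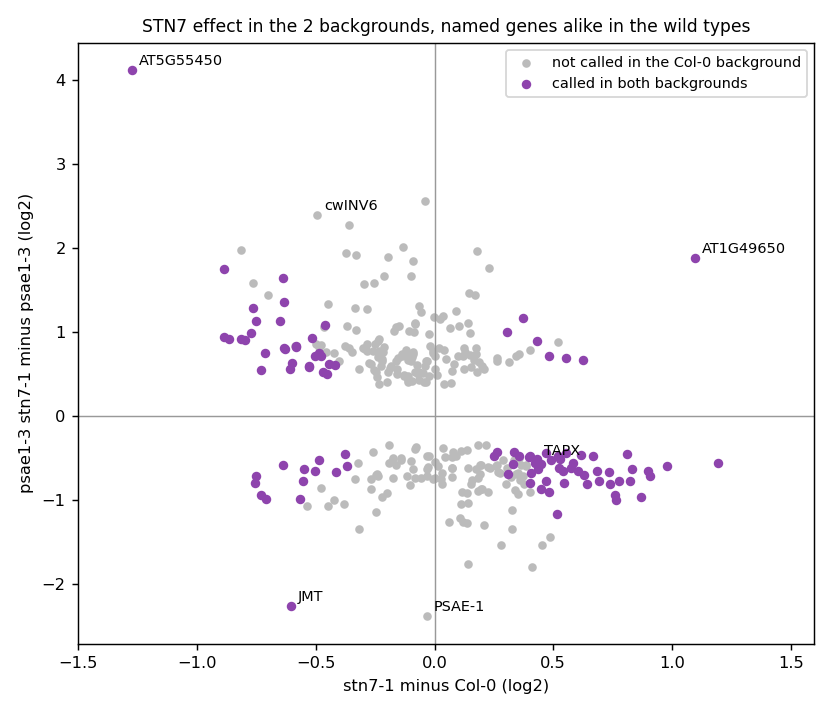
Log2 change of psae1-3 stn7-1 minus psae1-3 against that of stn7-1 minus Col-0 for the 355 named alike genes called between psae1-3 stn7-1 and psae1-3. Purple points, 101 genes, were called in stn7-1 against Col-0 as well, and 80 of them lie in the upper left and lower right parts of the plot, where the signs are opposite.

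The difference between the STN7 effects was tested directly. The effect in psae1-3 minus that in Col-0 was called for 1594 alike probe sets (20.4%), higher in 737 (9.42%) and lower in 857 (11%). With scaling to the array median 25.8% of these calls were higher, against 46.2% with the trimmed mean. The effect in psae1-3 minus that in psad1-1 was called for 507 (6.48%). AT5G55450 gave the highest difference from both backgrounds, 5.40 ± 0.45 from Col-0 (adjusted p = 1.12e-06) and 4.39 ± 0.48 from psad1-1 (adjusted p = 2.59e-05). With stn7-1 it changed by -1.27 in Col-0 and by -0.27 in psad1-1. The array set and the background cannot be told apart for either difference, since psae1-3, psae1-3 stn7-1 and Wassilewskija lie in one set of 6 arrays and the other 4 genotypes in a set of 11.

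On the plastid ribosome list 5 of 8 alike members were lower in psae1-3 stn7-1 than in psae1-3. All 8 were called higher in stn7-1 against Col-0 (median log2 change 0.66), beside 10.7% of the alike set. The difference between the backgrounds was called lower for all 8, beside 11% of the alike set. This held also without each of the arrays of psae1-3 stn7-1, psae1-3, stn7-1 and Col-0 in turn. Quantile normalization over all arrays left 7. AT4G17560 rose by 0.76 with stn7-1 in Col-0, where its signals were 621, 825 and 553 in stn7-1, against 424, 339 and 405 in Col-0. Its difference of effects was -1.70 ± 0.26 from Col-0 (limma adjusted p = 0.000274) and -1.13 ± 0.27 from psad1-1 (adjusted p = 0.0185). Over the list, the difference from psad1-1 was called lower for 3 of the 8 alike members, beside 237 of the 7823 alike probe sets. In psae1-3 against Wassilewskija, a comparison that shares the psae1-3 arrays, the list's median change was 0.75, and in psae1-3 stn7-1 against Wassilewskija it was 0.22.

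Other lists differed between the psae1-3 and Col-0 backgrounds as well. All 4 alike members of the tetrapyrrole list were called higher in stn7-1 against Col-0 (log2 changes 0.39 to 0.91), beside 10.7% of the alike set. The difference of effects was called lower for CHLI2 (-1.26), HEMB1 (-0.96) and CHLM (-0.63) but not for GSA1 (-0.50), beside 11% of the alike set. CHLI2 read 251, 309 and 259.5 in stn7-1, against 177, 122 and 141 in Col-0. TAPX rose by 0.43 with stn7-1 in Col-0, and its difference of effects was -0.96 ± 0.16 (adjusted p = 0.000504). The 3 alike anthocyanin genes were lower in stn7-1 than in Col-0, beside 8.24% of the alike set. The difference of effects was called higher for all 3, beside 9.42% of the alike set, at 1.18 for UGT78D2. The other 2 were dim in both psae1-3 genotypes, so that the size of their difference rests on values near or below background. AT4G14090 read 11.4 and 3.45 in psae1-3 stn7-1 and 16.6 and 0.897 in psae1-3, with 1 array of each below background, while it averaged 17.7 ± 4.09 in stn7-1 and 170.01 ± 27.7 in Col-0 (SD, n = 3). Its difference of effects was 3.57, and 3.01 with the floor at the background signal; for DFR it was 3.41 and 2.57. DFR read 20.4, 26.6 and 48.7 in stn7-1, against 160.3, 296 and 188 in Col-0, and psae1-3, at 25.8 and 2.56, of which the second is below background, was below every Col-0 array too. Only 1 of the 3 anthocyanin differences was called without psae1-3 stn7-1 replicate A, and 1 without psae1-3 replicate B. From the psad1-1 background the difference was called for 0 alike members of the tetrapyrrole, antioxidant and anthocyanin lists, beside 6.48% of the alike set. ATERDJ3B and CRT1b were not called in stn7-1 against Col-0 (-0.30 and 0.15) or in psad1-1 stn7-1 against psad1-1 (-0.17 and -0.10). Their differences of effects were called against both backgrounds, at 1.87 and 0.84 from Col-0 and at 1.74 and 1.09 from psad1-1.

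**Figure D4:**
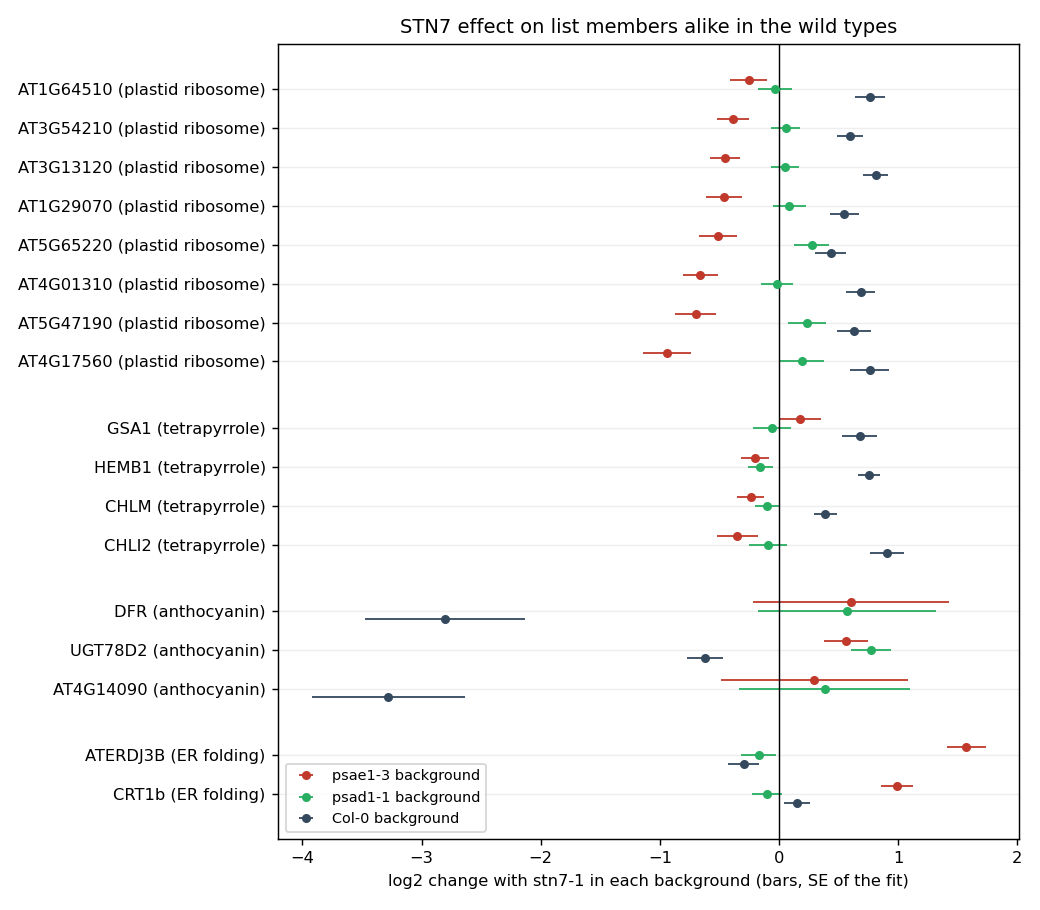
Log2 change with stn7-1 in the psae1-3, psad1-1 and Col-0 backgrounds for the alike members of 4 lists, with bars for the SE of the fit. The 8 plastid ribosomal genes lie between -0.94 and -0.26 in psae1-3 and above 0 in Col-0, and ATERDJ3B and CRT1b stand at 1.57 and 0.99 in psae1-3.

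The alike calls were also set beside Wassilewskija. In psae1-3 stn7-1 against Wassilewskija 1064 alike probe sets were called (13.6%) and in psae1-3 against Wassilewskija 974 (12.5%); both comparisons share arrays with the one described here. The 391 probe sets that were higher than in psae1-3 had a median log2 change of 0.75, with medians of 0.42 for the double mutant against Wassilewskija and -0.40 for psae1-3 against Wassilewskija. The 336 lower probe sets had a median of -0.67, with medians of -0.45 and 0.23. JMT stood at -1.27 for psae1-3 stn7-1 (adjusted p = 0.00056) and 0.99 for psae1-3 (adjusted p = 0.0063) against Wassilewskija.

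Among the 4 highest and 4 lowest apart genes, psae1-3 stn7-1 came nearest to the Col-0 level in ECS1, AT1G66100 and ACLA-2 and lay further above or below it in the other 5. ECS1, a cell wall protein gene, read 6545 and 6499 in psae1-3 stn7-1, against 14.8 and 41.3 in psae1-3, and averaged 4938 ± 381 in Col-0 (SD, n = 3) and 36.6 and 52.7 in Wassilewskija. AT1G66100 read 1696 and 1722 in psae1-3 stn7-1, against values below background in psae1-3, and was at least 209.6-fold higher, with a Col-0 mean of 2087 ± 69.2. AT1G76960 was at least 134-fold and CHI (AT2G43570), a chitinase, at least 42.5-fold higher in psae1-3 stn7-1 than in psae1-3, where both arrays were below background. For AT1G76960 the double mutant, at 1098 and 1082, stood above the Col-0 mean of 249 ± 26.9, and CHI, at 195 and 616, stood above its Col-0 mean of 31.5 ± 10.9. In the other direction ACLA-2, a subunit of ATP citrate lyase, read 65.5 and 69.4 in psae1-3 stn7-1, against 411 and 426 in psae1-3, with a Col-0 mean of 81.8 ± 5.60. AT5G15360 was below background on both psae1-3 stn7-1 arrays and at least 13.95-fold lower than in psae1-3, with a Col-0 mean of 22.2 ± 4.59. AT1G20490 read 4.92 and 9.69 in psae1-3 stn7-1, of which 1 was below background, against 103 and 101 in psae1-3, and was at least 11.48-fold lower, with a Col-0 mean of 24.7 ± 1.84. AT1G52000 read 57.6 and 57.2 in psae1-3 stn7-1, against 423 and 355 in psae1-3, with a Col-0 mean of 208 ± 18.4. Nearest to the limit of 0.5 among the called genes were AT1G67950 inside it, with a wild-type difference of -0.499 and a log2 change of -0.50, and ENGase85A outside it, with one of 0.502 and a log2 change of 1.13.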

How the data were processed

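The deposited values are signal intensities on a linear scale, which the authors obtained from GCOS (MAS5), per the submitters' processing notes, with no version stated there. The labels' protocols give 5 µg of total RNA per array, from a pool of 10 plants. Deposited 2% trimmed means were 500 on 6 arrays (psae1-3 stn7-1, psae1-3, Wassilewskija) and 100 on the other 11, so every array was rescaled to 100. Signals below the 10th percentile (1.57) were raised to it, 64 control probe sets were removed, log2 was taken, and the dimmest 40% by mean signal were left out. limma 3.58.1 in R 4.3.3 fitted 1 mean per genotype over all 17 arrays with a variance trend, and p-values were Benjamini-Hochberg adjusted over all 13648 probe sets; all tests were two-sided. The difference of STN7 effects was a contrast in the same fit. SE is that of the moderated fit, SD that of scaled signals. The small number of arrays, not read depth, limits precision. The p-values measure only the spread between pools of the same genotype, estimated jointly over all 17 arrays and not from the 4 compared arrays alone.

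A background signal of 8.15 marks the 95th percentile of 315 readings from controls for which no target was present. Folds written "at least" set signals under it to it. Genes were named through a probe annotation and the RefSeq table of TAIR10.1; of 14016 listed probe sets 13436 matched 1 gene and 503 carry several. Named genes were the 12 highest and 12 lowest alike genes that passed without overlap and with the brighter group's mean above background (PSAE-1, ATIM, AT5G42830, AT5G09290 and AT1G20870 have 1 array of the dimmer group below it), the 4 highest and 4 lowest for each difference of effects and for apart genes, the mutated genes, list members and the genes nearest to 0.5. The members and lists were chosen with earlier results of these data known. The lists for plastid ribosome and endoplasmic reticulum folding and the families in the closing section were added after the data were seen. Alternatives covered scaling, quantile normalization, floors, filters, variance models, the arrays in the fit, the 0.5 limit, a replicate block and leaving out each array. The fit was tested on simulated data. STN7 has no named probe set and is not reported here.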

Additional observations from a re-analysis of the deposited data

Results flagged for a closer look

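The results here were picked because the test of the difference between STN7 effects passed, so the effect of stn7-1 in psae1-3 differed from that in another background. From the Col-0 background the differences (log2, psae1-3 minus Col-0) were 5.40 for AT5G55450, 3.57 for AT4G14090, 3.41 for DFR and 3.02 for AT4G19430 at the high end. At the low end they were -2.36 for PSAE-1, -2.21 for AT1G66430, -2.00 for AT3G17350 and -1.92 for COR15B. From the psad1-1 background the differences were 4.39 for AT5G55450, 2.48 for AT5G43910, 2.16 for AT1G13750 and 2.13 for AT1G49650. They were -3.26 for AT3G14200, -2.70 for AT3G56260, -2.48 for PSAE-1 and -2.36 for JMT. PSAE-1 is the mutated gene and lay near background in psae1-3 stn7-1. With the floor at the background signal its differences were -2.04 from Col-0 and -2.16 from psad1-1.

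AT4G14090, DFR and AT4G19430 were lower in stn7-1 than in Col-0 (log2 changes -3.28, -2.80 and -1.97) and not called in psae1-3 stn7-1 against psae1-3 (0.30, 0.61 and 1.05). For AT4G14090 and DFR the psae1-3 genotypes lay near or below background, and the differences were 3.01 and 2.57 with the floor at the background signal. AT3G14200 and AT3G56260 were higher in psad1-1 stn7-1 than in psad1-1, where both arrays were below background for each gene, so these differences have no measured size, and they were not called in the psae1-3 background (-0.36 and 0.23). AT3G14200 read 10.2, 10.7 and 32.6 in psad1-1 stn7-1, against 2.66 and 1.32 in psad1-1, below background, and its difference of effects was -1.27 (adjusted p = 0.222) with the floor at the background signal. AT3G56260 read 30.9, 40.2 and 52.3 in psad1-1 stn7-1, against 7.04 and 3.95 in psad1-1, and its difference was -2.07 (adjusted p = 0.0125) with that floor. The calls of DFR, AT4G14090 and COR15B in the Col-0 comparison were lost without psae1-3 stn7-1 replicate A, at differences of 2.849, 2.705 and -1.849. They were also lost with robust variances (limma adjusted p = 0.0816, 0.0509 and 0.0505) and with no filter on dim probe sets (0.0945, 0.0671 and 0.071). Leaving out psae1-3 replicate B lost DFR and AT4G14090, and psae1-3 replicate A lost COR15B. DFR and COR15B were lost without stn7-1 replicate A or B, and DFR without Col-0 replicate B. AT5G43910 from psad1-1 was lost with no dim filter (0.0569).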

How the results depend on the processing

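The count of alike calls, 727, was 470 when only the 4 arrays of the comparison entered the fit, 400 with a limit of 0.25 between the wild types and 1180 with a limit of 1. Leaving out each array in turn gave 762 to 1320 calls over all probe sets (975 without psae1-3 replicate A, 762 without psae1-3 stn7-1 replicate A) and 251 to 551 among the alike ones. It gave 911 to 1549 for the difference from Col-0 and 173 to 570 for the difference from psad1-1; where an arm kept 1 array, that array is assumed to vary like the other genotypes. The low values came without psae1-3 stn7-1 replicate A, except 173 without psad1-1 replicate B; the counts were 1025 from Col-0 and 221 from psad1-1 without psae1-3 replicate A, 176 from psad1-1 without psae1-3 stn7-1 replicate A, and 323 and 312 without psad1-1 stn7-1 replicates B and C. With the letters as a replicate block the counts were 1500, 628, 1441 and 321, of which the last is below the main 507 by over 1.5 times. Over genes, the A minus B deviations of psae1-3 stn7-1 and psae1-3 correlated at -0.098. With 2 arrays per genotype this cannot tell whether the letters mark a shared batch. The causes of these moves in the counts were not tested. Among the 24 highest and lowest genes 6 lost their call under some alternative (AT1G20870, ATIM, AT4G23610, AT5G42830, COR15B and TBL36) and 0 changed sign. For leaving out an array the kept sign was fixed in advance, since these genes were chosen without overlap of the 2 genotypes. Scaling to the median lowered the share of higher calls over all probe sets to 41.6%, against 60.9%, and quantile normalization over all arrays gave 50.6% in the alike set. It gave 40.5% for the difference from Col-0, against 46.2%.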

Other observations

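Genes outside the lists, chosen after their values were seen, gave further alike calls. LIL3:1 and LIL3:2, which hold chlorophyll synthesis enzymes in the thylakoid membrane, averaged 831 ± 3.93 and 1014 ± 17.2 in psae1-3 stn7-1, against 1349 ± 177 and 1524 ± 84.0 in psae1-3 (SD, n = 2). They fell by 0.69 and 0.59 on the log2 scale (limma adjusted p = 0.00166 and 0.0069). The LIL3:2 call was lost without psae1-3 replicate B, at a log2 change of -0.53. HEME2, an enzyme of the tetrapyrrole pathway, and LPA2, an assembly factor of photosystem II, had log2 changes of -0.77 and -0.61, but their adjusted p was 0.254 and 0.288 without psae1-3 stn7-1 replicate A, and 0.117 and 0.081 without psae1-3 replicate A. On the higher side stood NDB2, an external NADH dehydrogenase of mitochondria (1.19), PPDK, pyruvate orthophosphate dikinase (0.92), and GTR2, a glucosinolate transporter (1.06). PPDK averaged 1014 ± 14.3 in psae1-3 stn7-1, against 538 ± 60.6 in psae1-3, and was lower in stn7-1 than in Col-0, with a log2 change of -0.82.

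In gene families defined by symbol and chosen after the data were seen, alike members were called as follows, beside 9.29% of the alike set. Of 6 serine carboxypeptidase-like genes 2 were higher (SCPL45 and scpl46), of 2 WRKY genes 1 was higher (WRKY47, 1.77) and of 7 cytochrome P450 genes 1 was higher (CYP71B23, 1.75). Of 4 glutathione S-transferase genes 1 was lower (GSTU20, -0.92), and of 10 UDP-glycosyltransferase genes 2 were lower. The 1 xyloglucan endotransglucosylase gene, XTH32, was lower (-0.68, adjusted p = 0.045), and the 2 expansin genes gave 0 calls.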
